A study of Drosophila melanogaster with 6 samples.

Results

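The genes described here are 10 transcription factors that pattern the wing and its veins, taken by gene symbol from 16508 genes in the tables of the series: ara, caup and mirr of the Iroquois group, the spalt genes salm and salr, the knirps genes kni and knrl, vestigial (vg), and the POU genes nub and pdm2. All 10 were found and all passed the filter on low counts. PolyA RNA came from whole larvae of instar 3, pooled in lots of 40 per library, and was sequenced in 3 libraries labelled WT (Oregon wild-type) and 3 labelled CrolKO. In the CrolKO flies, crol (crooked legs, a C2H2 zinc finger protein) was replaced by a DsRed marker through CRISPR/Cas9 in a stock mutant for yellow and white, and the chromosome was kept over a CyO balancer. How mutant larvae were picked for RNA and their sex are not given in the sources used here. WT and CrolKO larvae came from different stocks, so that the loss of crol and the strain cannot be told apart. Wing discs are a small portion of a whole larva, and these genes are also used in other tissues, so each value is a sum over tissues. In such bulk RNA, fewer cells of a type and less RNA per cell cannot be told apart.

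In the wing disc, Hedgehog from posterior cells induces Decapentaplegic (Dpp), a BMP ligand, and Dpp switches on the spalt genes in the centre of the future blade. The edges of the spalt domain place knirps and Iroquois expression, and these genes in turn set where veins form. Vestigial, together with its DNA-binding partner Scalloped (sd), gives cells their wing identity, and the POU protein Nubbin acts in blade and hinge. Several of these loci are textbook targets of Polycomb group repression, and the study asked whether Crol takes part in that repression.

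The libraries held between 23637969 and 49236787 expected counts. Titles and genotype fields set the group of each library, while the tables were deposited under names that carry the other genotype, and which of these is right was not decided here. Every direction below is labelled CrolKO over labelled WT and would turn if the names of the tables hold. Levels are given as CPM, the TMM-normalized count relative to library size. crol itself had 63.3, 60.6 and 73.2 CPM in the libraries labelled WT and 42.8, 39.1 and 37.0 in those labelled CrolKO. It fell by 0.73 on the log2 scale (adjusted p = 0.0043 by edgeR), and the difference was -0.14 (adjusted p = 0.64) once the trend over transcript length described next was removed. The white gene w, mutant in the stocks used for the knockout, went the other way, with 0.817, 0.623 and 0.561 CPM in the libraries labelled WT and 15.2, 16.6 and 17.9 in those labelled CrolKO. The balancer carries w[+mC], and whether any of the sampled larvae had the balancer is not given in the sources used here. The y transcript had means of 0.541 and 0.706 CPM and did not pass (adjusted p = 0.43 from edgeR). Libraries differed in how deviations of genes from the mean over all libraries moved with transcript length. Spearman rho over genes, a description since genes are not replicates, was 0.44 in replicate 2 labelled WT. It was 0.22 and 0.11 in the other libraries labelled WT and between -0.43 and -0.11 in those labelled CrolKO. Replicate 2 labelled WT was thus 1 end of a range, and replicate 3 labelled CrolKO, at -0.43, lay nearly as far on the other side of 0. Results below are also given without replicate 2 labelled WT and after removal of the length trend, and the closing section leaves out each library in turn.

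No gene of the 10 was called as changed between the labelled groups, where a call needed both an adjusted p under 0.05 and a change beyond 1 in either direction on the log2 scale (edgeR's quasi-likelihood test, Benjamini-Hochberg adjustment over 12434 tested genes). Of all tested genes, 7.55% were called lower and 6.0% higher in the libraries labelled CrolKO. By the adjusted p alone, knrl fell, and it was the only member to pass, against 17.8% of tested genes lower and 15.3% higher. At an unadjusted p under 0.05, 4 members were lower (caup, mirr, salr and knrl) and 0 higher, against 24.5% and 21.1% of tested genes. DESeq2 called 0 of the 10 in either direction, and limma called 0 on log2(TPM + 1) and 3 lower on log2(TPM + 0.1). Of all 12434 tested genes, these fits called 915, 1689 and 3139 lower and 786, 175 and 247 higher. The median log2 fold change of the 10 genes was -0.28, beside -0.052 for all tested genes, and 8 of the 10 were below 0.

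**Figure D1:**
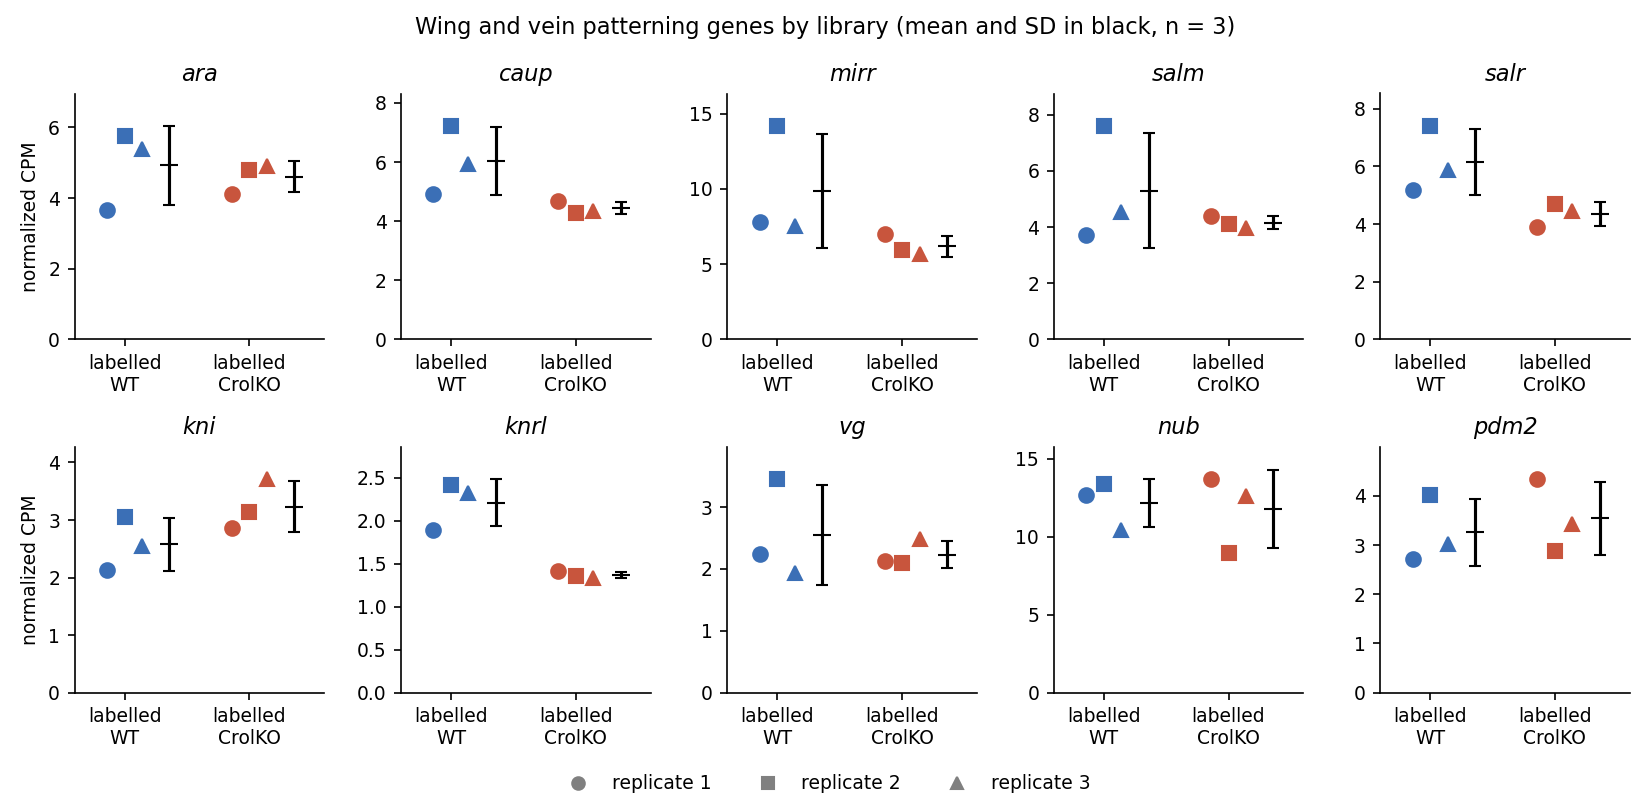
Normalized CPM (y axis, linear from 0) of the 10 genes in each library, with blue points for libraries labelled WT, red points for those labelled CrolKO, shapes for the replicate number, and the mean and SD of each group in black (n = 3 each). Replicate 2 labelled WT (blue square) was the highest of all libraries for 7 genes, and for caup, mirr, salr and knrl every red point lies below every blue one.

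The Iroquois genes encode homeodomain proteins of the TALE class, and ara, caup and mirr stand next to each other on arm 3L, on 1 strand and with 0 annotated protein-coding genes in between (Release 6 annotation). ara and caup, which act together in vein formation and in the choice of bristle-forming cells on the notum, are the closest pair of the group. ara had 3.65, 5.75 and 5.39 CPM in replicates 1, 2 and 3 labelled WT and 4.11, 4.80 and 4.90 in those labelled CrolKO. All 3 CrolKO values lie inside the WT range. The log2 fold change of ara was -0.10 (standard error, SE, 0.21, adjusted p = 0.73 by edgeR), and its 95% interval reached from 67.1% to 129% of the WT level. caup had 4.93, 7.24 and 5.92 CPM against 4.68, 4.28 and 4.36. Its groups did not overlap, although replicate 1 labelled WT and replicate 1 labelled CrolKO were close, and its log2 fold change was -0.44 (SE 0.18, adjusted p = 0.089 by edgeR). No overlap in the lower direction was common in these data, at 26.5% of all tested genes, and 4 of the 10 members had it, while 0 members lay apart in the higher direction against 23.7% of tested genes.

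mirror (mirr), which marks dorsal eye and parts of the notum, had the widest values of the group. Its CPM were 7.79, 14.2 and 7.52 in the libraries labelled WT and 6.99, 5.93 and 5.65 in those labelled CrolKO. Replicate 2 labelled WT was 1.86 times the mean of the other 2 libraries labelled WT, and that library set most of the difference between the groups. With it, mirr had a log2 fold change of -0.67 (SE 0.26, adjusted p = 0.080 by edgeR). Without replicate 3 labelled WT it passed, at -0.76 (adjusted p = 0.041). Without replicate 2 labelled WT, the value was -0.27 (SE 0.14, adjusted p = 0.19 by edgeR).

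The spalt genes encode zinc finger repressors that Dpp signalling turns on in the central wing, and salm also acts in the trachea and in oenocytes. salr and salm are neighbours on arm 2L, on opposite strands. salm had 3.74, 7.62 and 4.54 CPM in the libraries labelled WT and 4.40, 4.12 and 3.96 in those labelled CrolKO. The groups overlapped, and replicate 2 labelled WT was again the high value, at 1.84 times the mean of its group mates. salm had a log2 fold change of -0.35 (SE 0.27, adjusted p = 0.33 by edgeR), and of 0.039 without that library (SE 0.16, adjusted p = 0.88). salr had 5.17, 7.42 and 5.86 CPM against 3.88, 4.70 and 4.46, with no overlap. Its log2 fold change was -0.50 (SE 0.18, adjusted p = 0.066 by edgeR), and -0.31 (adjusted p = 0.19) without replicate 2 labelled WT.

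The knirps genes encode zinc finger proteins of the nuclear receptor family that lack a ligand-binding domain, and both act in a vein at the anterior edge of the spalt domain and in the tracheal system. They lie on arm 3L with 1 annotated protein-coding gene, CG13251, between them. Their values parted. knrl had 1.90, 2.41 and 2.33 CPM in the libraries labelled WT and 1.41, 1.36 and 1.34 in those labelled CrolKO, from 120 down to 27 counts per library. It fell to 61.9% of the WT level (95% interval 44.3% to 86.7%), a log2 fold change of -0.69 (SE 0.21, adjusted p = 0.038 by edgeR). The CrolKO values of knrl were the tightest of any member, with a coefficient of variation of 2.90%. They rest on only 55, 52 and 27 counts in replicates 1, 2 and 3, so that tightness is not read as precision. That pass was narrow. Leaving out any 1 of the 6 libraries kept the log2 fold change between -0.74 and -0.59 but ended the pass each time (adjusted p 0.074 without replicate 2 labelled WT and up to 0.12 in the other fits), and DESeq2 gave an adjusted p of 0.068. kni had 2.13, 3.05 and 2.55 CPM against 2.85, 3.13 and 3.72, with overlapping groups. Its log2 fold change was 0.32 (SE 0.21, adjusted p = 0.28 by edgeR), so that kni and knrl lay on opposite sides of 0 on the scale of counts, while both were below 0 on log2(TPM + 1), at -0.20 and -0.40.

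vestigial, a transcriptional coactivator and the selector of wing identity, lies alone among the members on arm 2R. It had 2.25, 3.46 and 1.94 CPM in the libraries labelled WT and 2.13, 2.09 and 2.48 in those labelled CrolKO. The groups overlapped, and the log2 fold change of -0.20 (SE 0.26, adjusted p = 0.58 by edgeR) turned to 0.12 (adjusted p = 0.70) without replicate 2 labelled WT. The 95% interval with all libraries reached from 57.3% to 132% of the WT level, so that a fall as large as the 61.9% of knrl lies inside the interval. Its partner sd, expressed at 47.4 ± 4.42 and 34.9 ± 4.52 CPM (SD, n = 3 each), fell by 0.44 on the log2 scale (SE 0.13, adjusted p = 0.039 by edgeR), and no longer passed without replicate 2 labelled WT (adjusted p = 0.071) or with the length trend removed (adjusted p = 0.42). Whether vg and sd differed in their response was not tested.

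The POU genes nub and pdm2 are neighbours on arm 2L. Both also act in the temporal identity of neuroblasts, and nub has a role in gut and fat body as a repressor of immune genes. nub had the highest mean CPM of the 10 in both groups, although mirr was above it in replicate 2 labelled WT. Its values were 12.7, 13.3 and 10.4 CPM in the libraries labelled WT and 13.7, 8.98 and 12.6 in those labelled CrolKO. The CrolKO libraries covered a wider range than the WT libraries, and the log2 fold change was -0.048 (SE 0.18, adjusted p = 0.86 by edgeR, 95% interval 72.2% to 130% of the WT level). pdm2 had 2.72, 4.02 and 3.03 CPM against 4.35, 2.87 and 3.42. Its log2 fold change was 0.12 (SE 0.23, adjusted p = 0.72 by edgeR), and the groups overlapped. In both genes replicate 1 labelled CrolKO was the highest of all libraries.

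Reads were shared between nub and pdm2 in the counting. The expected counts of either gene were not whole numbers in 6 of 6 libraries, while the sum of both was whole (within 0.005) in 5 of 6. For ara and caup, at least 1 of the pair was not whole in 4 libraries, and their sum was whole in 3 of 6. For kni and knrl, at least 1 was not whole in 3 libraries, and their sum was whole in the other 3, so that summing the pair did not remove the fractions. The split of such reads rests on the estimate by RSEM, so single values of these 6 genes, and the ratio of kni to knrl given next, carry that uncertainty. Summed as 1 feature, a choice made after seeing the data, nub and pdm2 had a log2 fold change of -0.010 (SE 0.18, adjusted p = 0.97 by edgeR), and ara and caup one of -0.28 (SE 0.16, adjusted p = 0.22).

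The ratio of related genes within a library does not depend on how libraries are scaled, and 5 such ratios were compared. For kni over knrl, the log2 ratio of counts was 0.17, 0.34 and 0.13 in the libraries labelled WT and 1.01, 1.21 and 1.47 in those labelled CrolKO. All CrolKO values lay above all WT values, and the difference was 1.02 (SE 0.15, two-sided exact permutation p = 0.10, the smallest that 3 against 3 allow, and 0.33 adjusted over the 5 ratios). Leaving out any 1 library kept it between 0.90 and 1.13. On the TPM scale the difference was 1.03. The lengths of kni and knrl were the same in all libraries, so TPM could not remove a trend of libraries over length from this ratio. The other 4 ratios overlapped between the groups, with differences of 0.35 for ara over caup, 0.54 for ara over mirr, 0.21 for salm over salr and -0.18 for nub over pdm2 (exact permutation p between 0.20 and 0.50, adjusted p between 0.33 and 0.50).

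**Figure D2:**
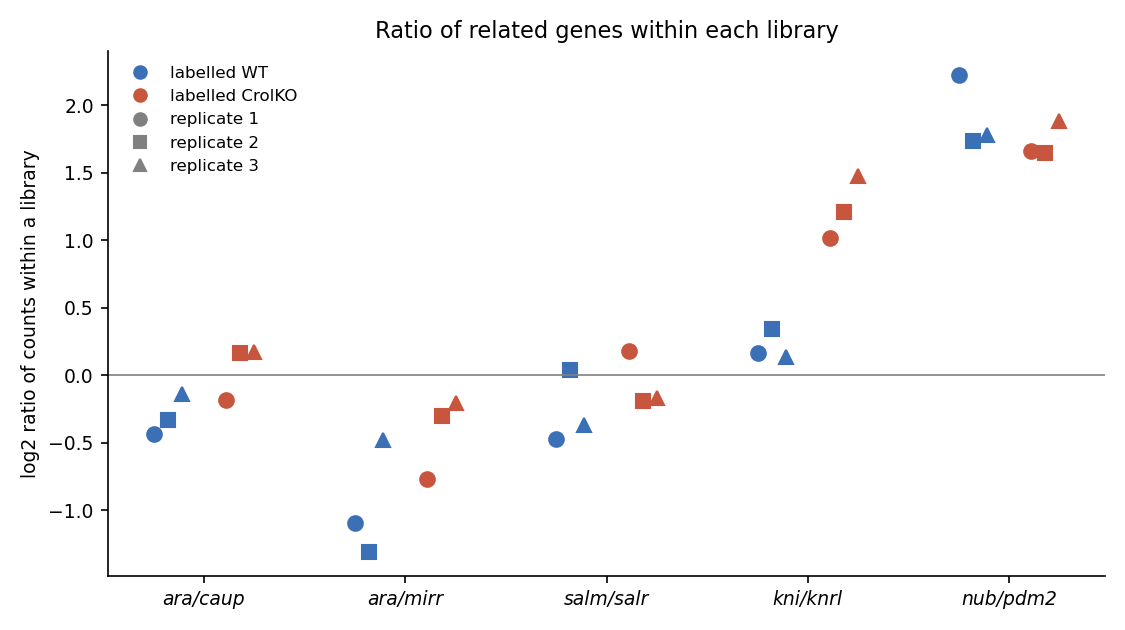
Log2 ratio of normalized counts of related genes within each library (y axis), in blue for libraries labelled WT and red for those labelled CrolKO, with shapes for the replicate number. Only for kni over knrl do the groups part, with means of 0.21 and 1.23.

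Transcript length moved with the difference between the groups. Across all tested genes, the log2 fold change fell with length (Spearman rho = -0.37 over 12434 genes), from a median of 0.26 in the shortest of 10 length bins to -0.70 in the longest. The members have long transcripts, between 2100 bases for kni and 6116 for salm. The 4200 tested genes within that range had a median log2 fold change of -0.26, close to the -0.28 of the members, and 3000 of them were below 0. With the trend of each library over length removed, the median of the members was 0.11, 2 of 10 were below 0 (mirr and knrl), and 0 passed the test in either direction, against 16.2% of tested genes lower and 16.6% higher. With the threshold on fold change added, 0 members were called, beside 5.69% of tested genes lower and 5.04% higher. In that setting knrl was -0.31 (SE 0.21, adjusted p = 0.28 by edgeR), mirr -0.27 (adjusted p = 0.25), pdm2 0.45 (adjusted p = 0.084) and salm 0.39 (adjusted p = 0.095). The kni over knrl difference also shrank, to 0.64 (SE 0.21), since the knrl transcript, at 3909 bases, is longer than that of kni, and the groups still did not overlap (exact permutation p = 0.10, adjusted p = 0.25 over the 5 ratios). In that setting salm over salr did not overlap either, with a difference of 0.34 (SE 0.15).

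**Figure D3:**
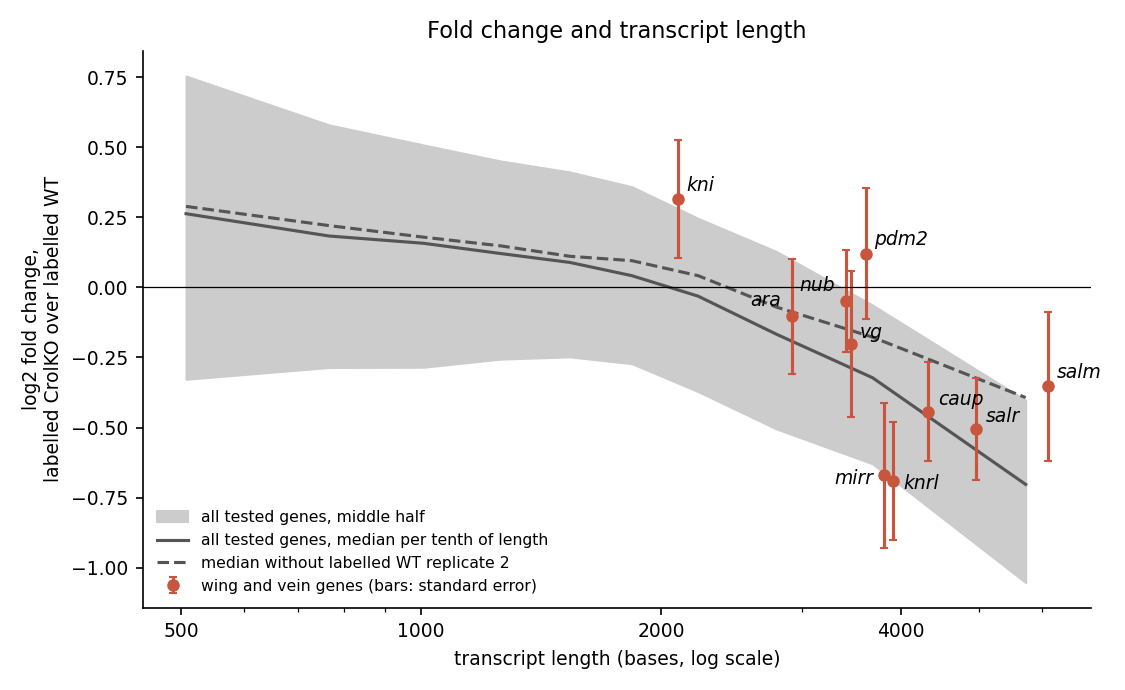
Log2 fold change of labelled CrolKO over labelled WT (y axis) by transcript length (x axis, log scale, bases), with the band between the lower and upper quartile of all tested genes in grey, their median in 10 length bins as a solid line, that median without replicate 2 labelled WT as a dashed line, and the 10 genes as red points with standard errors. The grey band falls from a median of 0.26 to -0.70, and most of the 10 genes sit within or near it.

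The high level of replicate 2 labelled WT was a common feature of the members. It was the highest library for ara, caup, mirr, salm, salr, knrl and vg, and its values were 1.14 to 1.86 times the mean of the other libraries labelled WT over the 10 genes. The share of all tested genes that were highest in that library is not given here, so this is not read as particular to the members. Summed over the 10 genes, replicate 2 labelled WT held 68.5 CPM, while the other 5 libraries held between 42.3 and 49.5 CPM whatever their label. The median coefficient of variation of the members was 20.03% in the libraries labelled WT and 9.58% in those labelled CrolKO, beside 15.5% and 12.7% for all tested genes. Without that library, 4 of 10 members were below 0 with a median of 0.047, and 0 passed the test in either direction (15.2% of tested genes lower and 15.4% higher). Again 0 members were called, beside 4.73% lower and 6.42% higher.

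**Figure D4:**
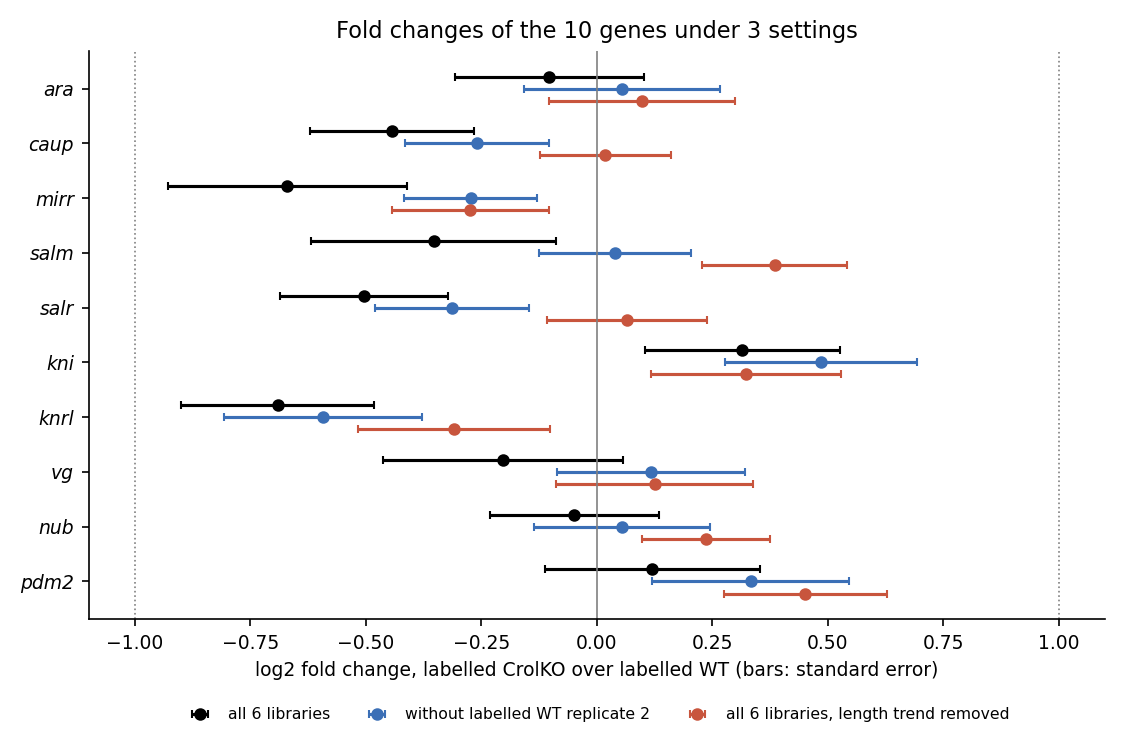
Log2 fold change of labelled CrolKO over labelled WT (x axis) for the 10 genes with all 6 libraries (black), without replicate 2 labelled WT (blue) and with the length trend removed (red), bars giving the standard error and dotted lines the fold change threshold of 1. No gene reaches the threshold, caup, mirr, salr and knrl move towards 0 without that library, and kni and knrl keep opposite signs in all 3 settings.

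As TPM (a share of transcripts corrected for length), which allow levels to be compared between genes, the members were low. In the libraries labelled WT the order ran from nub (2.94 to 4.99 TPM) through mirr (1.99 to 5.08), ara (1.39 to 2.65), caup (1.26 to 2.24), kni (1.14 to 1.99), salr (1.14 to 1.98), pdm2 (0.79 to 1.51), salm (0.67 to 1.66) and vg (0.53 to 1.34) to knrl (0.54 to 0.83). Every neighbouring pair in that order overlapped. In the libraries labelled CrolKO, nub (1.68 to 3.35) again led and knrl (0.21 to 0.29) was again the lowest, here apart from vg (0.37 to 0.51) without overlap, and nub was apart from mirr (0.94 to 1.44). ara exceeded caup in 6 of 6 libraries on this scale, although caup had more counts in all libraries labelled WT, because its transcript is longer. TPM of caup, mirr, salm, salr, knrl, ara and vg were lower in the libraries labelled CrolKO without overlap, as were those of 60.6% of all tested genes, and 0 members were higher without overlap, against 4.75%. The scale shifts all genes. The median log2 fold change of all tested genes was -0.48 on log2(TPM + 1), where the members had -0.43. On that scale limma called 0 members, beside 1689 of 12434 tested genes called lower and 175 higher. By adjusted p alone it passed 4 members. The share of all tested genes that passed by adjusted p alone in that fit is not given here, so the 4 is not read against those counts.

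Weighted transcript lengths, which can change when isoforms of a gene change in proportion, were the same in all libraries for caup, kni, knrl and vg. Of these, caup, knrl and vg have only 1 listed transcript each, so their lengths could not vary, and kni has 2. For nub, with 3 transcripts in the tables, they were 3497, 3599 and 3369 bases in the libraries labelled WT and 3294, 3285 and 3394 in those labelled CrolKO, so the groups overlapped. mirr had 3816, 3757 and 3596 bases against 3892, 3870 and 3892. The mirr groups did not overlap, and the difference is small against the length of the transcript. How often the lengths of other genes part in this way is not given here, so no isoform change is read from it.

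Across the 6 libraries, log2 CPM of salm followed the mean standardized profile of the other members most closely (Pearson r = 0.95), followed by mirr (0.86), caup (0.85) and vg (0.81). nub (0.31) and kni (0.051) followed it least. These are descriptions over 6 libraries that share the high replicate 2 labelled WT. Of 10947 other genes averaging 1 CPM or more, those closest to the mean profile of the members were CG6051, shtd, CG13541, c11.1 and Atg2 (r between 0.975 and 0.985 over 6 libraries). None of these 5 passed the test between the groups (adjusted p from edgeR between 0.25 and 0.41).

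The rest of the wing patterning network was read from 34 genes listed by role, all tested. In labelled CrolKO over labelled WT, 6 of these were called lower (Dl, N, bi, zfh2, hth and vn) and 0 higher. Beside them stand 7.55% of all tested genes called lower and 6.0% called higher. These directions would turn if the names of the tables hold, which was not decided here. Of the 4200 tested genes within the range of transcript lengths of the members, 359 were called lower and 80 higher. By adjusted p alone, 18 of the 34 were lower and 1, hh, higher, and the median log2 fold change of the 34 was -0.54. The counts by adjusted p stand beside 17.8% of all tested genes lower and 15.3% higher. Of the 4200 genes of member length, 1161 were lower and 249 higher by adjusted p. At an unadjusted p under 0.05, 24 of the 34 were lower and 3 higher, against 24.5% and 21.1% of all tested genes. DESeq2 called 6 lower and 0 higher, beside 915 and 786 of all 12434 tested genes. Among the 15 genes of the signalling pathways, 9 passed lower and 1 higher, among 9 genes of the blade and hinge 4 and 0, among 6 vein genes 3 and 0, and among 4 notum genes 2 and 0.

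Genes upstream of the members in the Hedgehog and Dpp cascade did not move one way. hh, the ligand, rose from 8.35, 7.48 and 7.55 CPM to 15.2, 13 and 11.3 CPM, a log2 fold change of 0.76 (SE 0.14, adjusted p = 0.0065 by edgeR). ptc, its receptor and also a transcriptional target of the pathway, fell from 16.8 ± 5.17 to 9.38 ± 1.25 CPM (SD, n = 3 each), with an adjusted p of 0.025 from edgeR that became 0.35 with the length trend removed. Without replicate 2 labelled WT, ptc still passed lower (adjusted p = 0.042 by edgeR). On the TPM scale the hh groups overlapped, at 3.06 to 4.29 against 3.41 to 5.19. With the length trend removed, the log2 fold change of hh was 0.83 (adjusted p = 0.0016 by edgeR). Without replicate 2 labelled WT it was 0.76 (adjusted p = 0.0089 by edgeR). dpp, with 6.32 and 5.08 CPM on average, did not pass (adjusted p = 0.24 from edgeR). Of the genes that Dpp induces, bi (optomotor-blind), a T-box factor of the central wing, fell from 8.61, 13.9 and 9.09 CPM to 3.99, 3.94 and 4.46 CPM, with a log2 fold change of -1.36 (SE 0.21, adjusted p = 0.0029 by edgeR). It remained at -0.76 with the length trend removed (adjusted p = 0.0042). Dad, also on the list and induced by Dpp, had a log2 fold change of -0.67 (adjusted p = 0.015 by edgeR). Dad also passed lower without replicate 2 labelled WT (adjusted p = 0.023) and with the length trend removed (adjusted p = 0.037). The spalt genes, which share this input in the disc, did not pass with all libraries, without replicate 2 labelled WT or with the length trend removed. That contrast of bi and Dad with the spalt genes was not tested as a difference.

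Among the listed genes of the blade and hinge, zfh2, a zinc finger homeodomain factor, had 24.2, 42.5 and 22.3 CPM against 10.8, 9.66 and 11.2 in whole larvae. Its log2 fold change was -1.49, and -0.46 with the length trend removed (adjusted p = 0.0040 and 0.021 from edgeR). Its transcript, at 10530 bases, is longer than that of any member. N, the Notch receptor, at 10087 bases, went from -1.32 (adjusted p = 0.019) to -0.24 (adjusted p = 0.16). With the length trend removed, hth was the 1 listed gene still called, at -1.43 (adjusted p = 4.2e-05 from edgeR). Of all tested genes, 5.69% were called lower and 5.04% higher in that setting. By adjusted p alone, 11 of 34 passed lower and 3 higher there, against 16.2% and 16.6% of all tested genes. Without replicate 2 labelled WT, Dl, bi, zfh2 and hth were called, beside 4.73% of tested genes called lower and 6.42% higher. By adjusted p alone, 14 then passed lower and 1, hh, higher, beside 15.2% and 15.4% of tested genes.

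Markers of other tissues and of stage moved between the labelled groups as well. Neuronal markers (6 of 6 tested, 4 passed lower) summed to between 114 and 141 CPM in the libraries labelled WT and between 75 and 83.7 in those labelled CrolKO. Ecdysone-response genes (10 of 10 tested, 5 passed lower) summed to between 366 and 692 CPM and between 174 and 257 CPM, with the top value in replicate 2 labelled WT. Eye disc markers (1 of 6 passed lower) summed to between 27.1 and 38.1 and between 21.2 and 25.4 CPM, and leg disc markers (1 of 4 passed lower) to between 15.2 and 21.8 and between 13.5 and 13.9 CPM. These shares compare with 17.8% of all tested genes lower and 15.3% higher. With the length trend removed, 1 neuronal marker, 3 ecdysone-response genes, 0 eye disc markers and 1 leg disc marker passed lower. Without replicate 2 labelled WT, the counts were 4, 3, 1 and 1. Summed levels of tracheal, muscle, fat body and salivary glue markers overlapped between the groups, but single markers moved. Of 6 fat body markers, Lsp1alpha, Fbp1 and Fbp2 were called lower (-1.44, -2.15 and -1.24 on the log2 scale) and Lsp1beta passed higher (0.82). Of 6 muscle markers sls (-2.24) and of 5 tracheal markers trh (-1.03) were called lower, and 0 of 4 glue genes passed. No tested marker of these lists was at 0 in any library, and the part of tissue or stage in the values of the members was not tested.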

How the data were processed

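RNA-seq of 6 libraries from whole larvae was analysed. Per the labels and the study's methods, the authors trimmed reads with Trim Galore 0.6.1, aligned them to dm3 with STAR 2.7.3a and ran RSEM 1.3.2 on RefSeq transcripts. The deposited expected counts are not scaled to depth. The deposited TPM values are scaled to the same total in every library and to transcript length, and the deposited FPKM values were not used. Strand settings are not given in the sources used here, and no exon of a member overlaps another gene in the Release 6 annotation. That annotation gave arms and neighbours only, since its build is not dm3.

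After rounding, edgeR 4.0.16 (R 4.3.3) was run on TMM-scaled counts with the quasi-likelihood test and Benjamini-Hochberg adjustment, on genes reaching 10 counts in 3 or more libraries. Intervals use the total degrees of freedom of that test. DESeq2 1.42.0, limma 3.58.1 with a pseudocount of 1 or 0.1 added to TPM before the log2, other normalizations and filters, the replicate number as a block, removal of a lowess trend (span 0.3) over transcript length, and leaving out each library were alternatives. The fits were tested on simulated data with 200 changed genes. Named genes are the members, crol, w and y, called genes of the role lists, and the 5 genes closest to the members' profile. hh, ptc, dpp, Dad and sd and the single fat body, muscle and tracheal markers were named after their values were seen. Members and lists were chosen with earlier results of these data known. Whether the pools came from separate cultures is not given in the sources used here, so p-values measure only the spread between these libraries, and 3 against 3 allow no exact permutation p under 0.10.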

Additional observations from a re-analysis of the deposited data

How the results depend on the processing

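With 0 members called in either direction by edgeR, the call changed in 2 settings. limma on log2(TPM + 0.1) called 3 members lower, mirr (-1.28), salr (-1.06) and knrl (-1.09), on a scale where all tested genes had a median of -0.67, and dropping the fold change threshold left 1 lower. Of the listed partner genes, 6 were called lower, 21 with limma on log2(TPM + 0.1), 1 with the length correction and 18 without the fold change threshold, which also gave 1 higher. Over all genes, 939 were called lower and 746 higher. These became 1689 and 175 with limma on log2(TPM + 1), 3139 and 247 on log2(TPM + 0.1), 2212 and 1900 without the fold change threshold, and 583 lower at an adjusted p under 0.01. Leaving out 1 library at a time gave 576 to 1089 lower and 606 to 889 higher over all genes, 4 to 6 partner genes lower and 0 higher, and 0 members in either direction, with the lowest count of lower genes, 576, without replicate 2 labelled WT.

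Signs of members near 0 turned with the setting. The length correction gave 0.098 for ara, 0.019 for caup, 0.39 for salm, 0.065 for salr, 0.13 for vg and 0.24 for nub. Upper-quartile normalization gave 0.022 for ara and 0.071 for nub. limma on log2(TPM + 1) gave -0.20 for kni and -0.26 for pdm2, and on log2(TPM + 0.1) -0.32 and -0.50. Leaving out 1 library gave ranges of -0.22 to 0.054 for ara, -0.49 to 0.039 for salm, -0.30 to 0.12 for vg, -0.18 to 0.12 for nub and -0.058 to 0.33 for pdm2. The cause was not tested. The log2 fold change of mirr, knrl and, among the count-based fits, kni kept its sign in every setting run. knrl passed an adjusted p under 0.05 in 0 of the 6 fits with 1 library left out.

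Same-numbered libraries did not deviate together (correlations between -0.26 and -0.0082), so the numbers do not pair them. With the replicate number as a block, 0 members passed, knrl was -0.68 (adjusted p = 0.13 from edgeR), the partner list had 6 called lower and 0 higher, and all genes 809 lower and 682 higher.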
